A study of Mus musculus with 12 samples.

Results

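The 9 genes described here encode titin and proteins that hold the cardiac sarcomere in register: Ttn, Mybpc3, Myom1, Myom2, Myom3, Nebl, Actn2, Ldb3 and Lmod2. They were chosen by gene symbol, matched 9 of the 55401 rows of the counts table, and all 9 passed the filter on low counts that 17699 rows passed. Messenger RNA was sequenced from left ventricle of mice in 4 groups of 3 libraries: wild type after sham surgery, wild type after transverse aortic constriction (TAC), T497A after sham and T497A after TAC. T497A is an allele of Prkca, the gene of protein kinase C alpha, in which a threonine is replaced by alanine; the series title concerns removal of a phosphorylation site of this kinase by base editing. TAC narrows the aorta against a 27-gauge needle, so that the ventricle works against raised pressure. Surgery was at 10 weeks of age and tissue was taken 1 week later, at 11 weeks, in every group. The labels do not tell strain, sex or whether each library came from its own animal. The p-values below therefore cover the spread among libraries, which may be technical.

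A sarcomere runs between 2 Z-discs, where actin filaments are anchored, and has the M-band at its centre, where myosin filaments are cross-linked. Titin spans from Z-disc to M-band as a spring and a ruler, myosin-binding protein C (Mybpc3) sits on the myosin filament and tunes its motors, and the myomesins (Myom1, Myom2, Myom3) tie myosin and titin together at the M-band. Alpha-actinin 2 (Actn2) cross-links actin at the Z-disc, Ldb3 (also called cypher or ZASP) is an adaptor bound to alpha-actinin, nebulette (Nebl) is a small cardiac relative of nebulin that links actin to the Z-disc, and leiomodin 2 (Lmod2) lengthens actin filaments at their pointed ends. In the heart, truncating or missense variants of several of these genes are known causes of cardiomyopathy.

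Libraries held 58932759 to 72594085 counts. Levels are CPM, read counts divided by the library total times its TMM factor. These factors were 1.13 to 1.21 in wild-type TAC and 0.91 to 0.988 in all other libraries. Mitochondrial genes took 9.67 to 14.7% of counts in wild-type TAC and 15.97 to 20.99% elsewhere. Wild-type TAC 2 stood furthest from its group, with the lowest mitochondrial share and the highest factor. The labels name cardiomyocytes as cell type and left ventricle as tissue. Of 10 cardiomyocyte markers none was at 0 in any group, and the summed level of 8 fibroblast markers was 1261 to 1515 CPM in wild-type sham, so the libraries also hold RNA of other cells. Prkca was read in every library, at 31.1 to 51.0 CPM, which does not check a point mutation. The T497A sham libraries stood apart: the X-inactivation RNA Xist was at 160 to 215 CPM there and at most 0.751 CPM elsewhere, and the Y-linked Ddx3y at most 0.396 CPM there and at least 73.6 CPM elsewhere. Comparisons with T497A sham therefore also compare libraries poor and rich in Y-linked RNA, and this difference cannot be told apart from genotype or surgery, and the TAC change under T497A is given below against wild-type sham as well.

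Upstream sequence is shown for 4 members that between them cover the patterns found: Ttn, whose fall was called in wild type alone; Mybpc3, whose rise was called in T497A alone; and Myom1 and Lmod2, the pair with the highest correlation over the libraries. Each run is the 250 bases before a RefSeq start of the gene (GRCm38.p6), 5′ to 3′ along the gene. The Myom1 start used lies inside the annotated gene, which begins at 71002633, so its run is not upstream of the whole gene. Capitals mark matches on either strand to the MEF2 or CArG motif (bound by the muscle factors MEF2 and SRF) or to the short motifs searched by letters. These were CATTCC for the TEAD factors of muscle, TATAAA for the TATA box and TGATAA for the GATA factors. No marked matches overlapped.
Ttn, chr2:76982548-76982797, minus strand: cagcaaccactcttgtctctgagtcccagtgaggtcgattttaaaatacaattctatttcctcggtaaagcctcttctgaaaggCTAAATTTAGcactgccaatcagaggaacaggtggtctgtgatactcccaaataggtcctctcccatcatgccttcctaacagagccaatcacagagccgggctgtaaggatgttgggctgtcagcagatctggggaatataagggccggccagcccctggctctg
Mybpc3, chr2:91117894-91118143, plus strand: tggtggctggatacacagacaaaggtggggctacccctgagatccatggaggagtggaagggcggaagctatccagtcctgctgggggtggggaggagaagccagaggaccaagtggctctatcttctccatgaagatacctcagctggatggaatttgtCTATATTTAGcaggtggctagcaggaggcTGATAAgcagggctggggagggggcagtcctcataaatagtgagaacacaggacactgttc
Myom1, chr17:71019307-71019556, plus strand: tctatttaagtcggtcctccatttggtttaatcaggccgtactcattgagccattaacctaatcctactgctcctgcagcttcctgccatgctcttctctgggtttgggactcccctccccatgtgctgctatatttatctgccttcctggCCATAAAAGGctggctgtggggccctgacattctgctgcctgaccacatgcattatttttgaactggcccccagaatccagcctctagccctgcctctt
Lmod2, chr6:24597521-24597770, plus strand: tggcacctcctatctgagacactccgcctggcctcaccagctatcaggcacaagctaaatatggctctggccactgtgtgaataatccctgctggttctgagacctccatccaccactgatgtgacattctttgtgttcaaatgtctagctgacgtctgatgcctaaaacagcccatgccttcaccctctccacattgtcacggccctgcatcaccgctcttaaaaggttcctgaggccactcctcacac

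The reference table held 12 such windows for 8 of the 9 members, Myom2 being the exception, and 32851 windows over all genes. A MEF2 match lay in 3 of the 12 windows, 166 to 157 bases before the start in Ttn, 90 to 81 in Mybpc3 and 35 to 26 in Myom3, and in 1.69% of all windows. A CArG match lay in 4 of the 12 windows, of Myom1 (99 to 90 bases before the start), Ldb3 and Nebl, and in 1.47% of all windows. The Ldb3 windows overlap and share 1 site, so the match was found for 3 of the 8 genes. The Myom1 and Nebl windows with a match lie inside the annotated genes. CATTCC was found in 1 window, of Nebl, and TGATAA in 1, of Mybpc3, against 12.6 and 7.94% of all windows, and TATAAA in none of the 12, against 12.4%. The general E-box CANNTG was in 8 of the 12 windows and in 66.2% of all windows, which is about the same share. These are matches of letters in a short window and say nothing of binding.

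Per kilobase of annotated exon, Mybpc3 was the most abundant of the 9 transcripts and Myom3 by far the least. Medians over the 12 libraries, in CPM per kilobase, were 1239 for Mybpc3 (range 1129 to 1548), 604 for Actn2 (481 to 654) and 489 for Lmod2 (340 to 593). Myom2, Ldb3 and Myom1 followed at 205, 184 and 178, with ranges that overlapped widely. Ttn stood at 42.3 (22.5 to 47.8) and Nebl at 29.3 (17.5 to 32.9), again overlapping, and Myom3, the skeletal muscle myomesin, at 0.601 (0.342 to 0.770). The Ttn gene model has 116825 bases of exon in 345 blocks, many of them used in some isoforms only, so its level per kilobase understates that of an isoform without them. Not per length, Ttn took 0.318 to 0.522% of all counts and the 9 genes together 1.62 to 2.07%.

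Ttn (ENSMUSG00000051747.15, GRCm38 chromosome 2, 76703980 to 76982547, minus strand) fell with TAC in wild type and was level in T497A. Its levels in wild type were 5061, 4874 and 5589.8 CPM after sham and 2772, 2628 and 2973 CPM after TAC. Every wild-type TAC library lay below every other library of the study. The T497A libraries stood at 5007, 5035 and 4689 CPM after sham and at 5036, 4702 and 5013 CPM after TAC, and these groups overlapped. The log2 fold change with TAC was -0.89 ± 0.08 (standard error) in wild type by the quasi-likelihood test of edgeR, with Benjamini-Hochberg adjusted p = 5.9e-07, and 0.00 ± 0.08 in T497A, with adjusted p = 0.99 and a 95% interval of -0.17 to 0.17. The difference of these changes, the interaction of genotype and surgery, was 0.89 ± 0.11 (adjusted p = 6.7e-05). Counts per gene do not separate the stiff and compliant titin isoforms, which arise by splicing. In bulk tissue, fewer cardiomyocytes and less of a transcript per cardiomyocyte cannot be told apart, for Ttn or for any gene below.

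**Figure D1:**
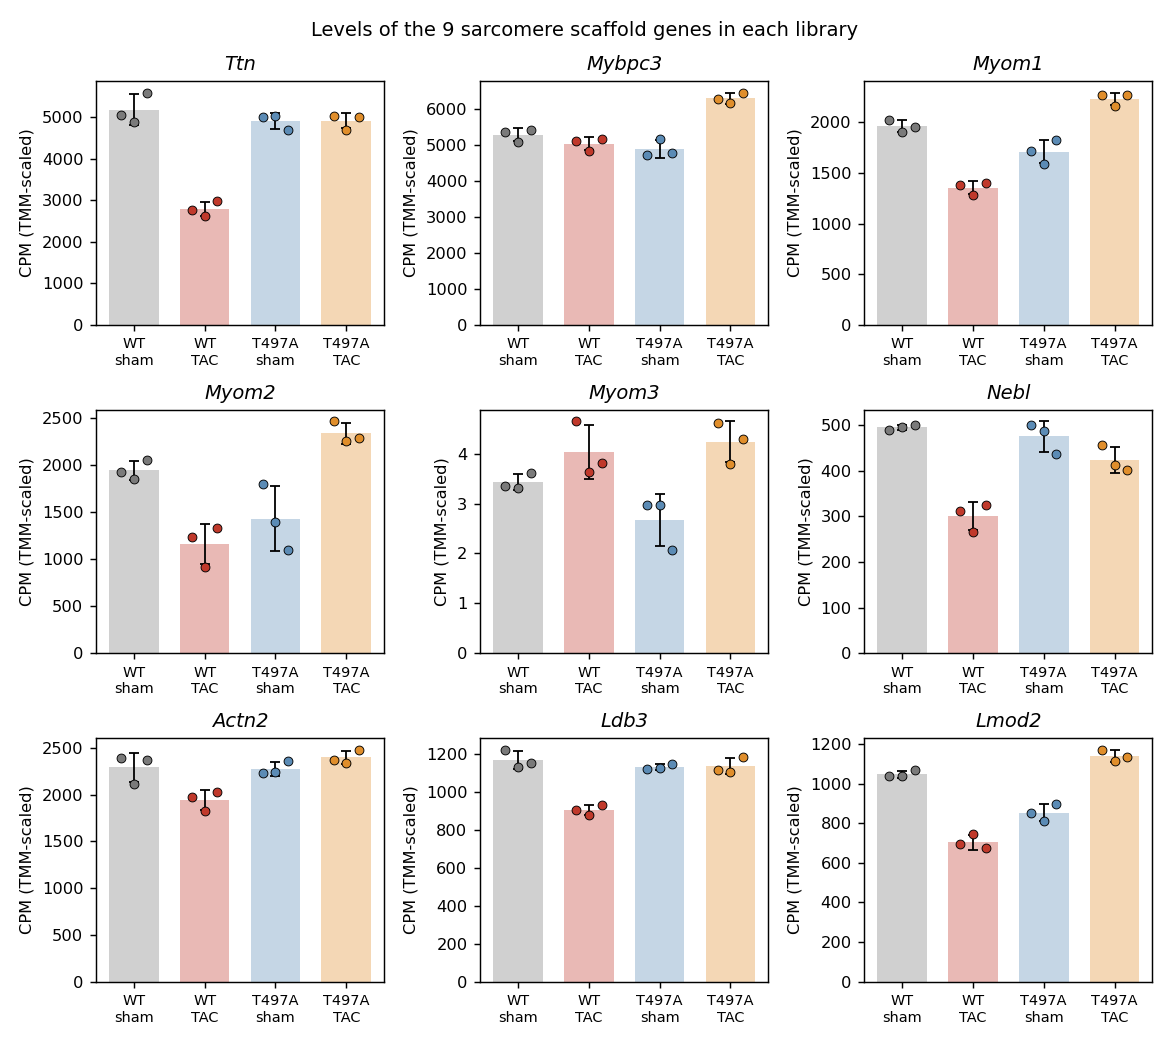
CPM with TMM factors (y axis, from 0) of each of the 9 genes in the 4 groups; points are the 3 libraries of a group, bars their mean and whiskers the SD. The wild-type TAC mean is the lowest for every gene but Mybpc3 and Myom3, and the T497A TAC mean is the highest for every gene but Ttn, Nebl and Ldb3, with Ttn at 2628 to 2973 CPM in wild-type TAC against 4689 to 5589.8 CPM in the other groups.

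Mybpc3 (ENSMUSG00000002100.15, chromosome 2, 91118144 to 91136516, plus strand) showed the other pattern. The wild-type levels overlapped, at 5353, 5075 and 5395 CPM after sham and 5103, 4833 and 5157 CPM after TAC. In T497A it stood at 4699, 5161 and 4764 CPM after sham and at 6266, 6149 and 6442 CPM after TAC, above all 9 libraries of the other groups. The change was -0.07 ± 0.07 in wild type (edgeR adjusted p = 0.46) and 0.37 ± 0.07 in T497A (adjusted p = 0.0020), with an interaction of 0.43 ± 0.10 (adjusted p = 0.0051). The wild-type value depended on scaling: with library totals and no TMM factors it was a called rise (0.26, adjusted p = 0.00092). Without those factors the interaction of Mybpc3 was not called (0.14, adjusted p = 0.18).

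Myom1 (ENSMUSG00000024049.15, chromosome 17, 71002633 to 71126856, plus strand), which cross-links myosin at the M-band in all striated muscle, fell in wild type and rose in T497A. Wild-type levels were 2026, 1908 and 1957 CPM after sham and 1382, 1285 and 1398 CPM after TAC. T497A levels were 1719, 1589 and 1822 CPM after sham and 2267, 2162 and 2267 CPM after TAC. Neither pair of groups overlapped, and the TAC groups were the lowest and the highest of the 4. The fitted changes were -0.54 ± 0.07 (edgeR adjusted p = 1.7e-05) and 0.38 ± 0.07 (adjusted p = 0.0011), with an interaction of 0.92 ± 0.10 (adjusted p = 1.8e-05). Myom1 shares 207 bases of exon with Myl12a on the opposite strand, and the labels do not tell whether counting used strand; Myl12a itself had 190516 counts over the 12 libraries and Myom1 had 1418166.

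Myom2 (ENSMUSG00000031461.4, chromosome 8, 15057653 to 15133541, plus strand), the M-band protein of fast and cardiac fibres, moved in the same directions with more spread. Wild-type levels were 1927, 1844 and 2049.7 CPM after sham and 1231, 920.1 and 1328 CPM after TAC. In T497A it stood at 1794, 1396 and 1098 CPM after sham and at 2463, 2249 and 2284 CPM after TAC. Sham and TAC did not overlap under either label, and the T497A sham libraries, the most spread of the 4 groups, reached into the range of wild-type TAC. The changes were -0.74 ± 0.16 in wild type (edgeR adjusted p = 0.0022) and 0.71 ± 0.16 in T497A (adjusted p = 0.0082), and the interaction, 1.45 ± 0.23 (adjusted p = 0.00071), was the largest of the 9 genes. T497A sham 3, lowest for Ttn, Myom2, Myom3 and Nebl in its group, was also the library highest for the atrial light chain Myl7, at 261 CPM against 63.6 and 74.4 CPM in the other T497A sham libraries; the part of atrial tissue in these values was not tested. Without that library the rise of Myom2 in T497A was 0.55 (adjusted p = 0.019).

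Myom3 (ENSMUSG00000037139.15, chromosome 4, 135759715 to 135815564, plus strand), known from skeletal muscle fibres, was read 124 to 348 times per library. Wild-type levels, 3.36, 3.32 and 3.62 CPM after sham and 4.65, 3.64 and 3.81 CPM after TAC, did not overlap but were not called apart (0.23 ± 0.17, edgeR adjusted p = 0.28). In T497A it went from 2.97, 2.97 and 2.06 CPM to 4.61, 3.80 and 4.29 CPM (0.67 ± 0.17, adjusted p = 0.011). The rise in T497A was no longer called without T497A sham 3, the lowest library (0.51, adjusted p = 0.050). In wild type the change was called with library totals (0.56, adjusted p = 0.011) and by limma-voom (0.38, adjusted p = 0.027). Myom3 was the only member whose interaction was not called (0.43 ± 0.24, adjusted p = 0.19).

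At the Z-disc, all 3 members fell with TAC in wild type and none was called in T497A. Actn2 (ENSMUSG00000052374.16, chromosome 13, 12269426 to 12340760, minus strand) had wild-type levels of 2391, 2116 and 2372 CPM after sham and 1979, 1825 and 2029.8 CPM after TAC. Its T497A libraries ran from 2226 to 2363 CPM after sham and from 2343 to 2481 CPM after TAC. The wild-type groups lay apart by a narrow gap and the T497A groups overlapped. The change was -0.24 ± 0.07 in wild type (edgeR adjusted p = 0.013) and 0.07 ± 0.07 in T497A (adjusted p = 0.50). This was the least secure fall of the 7: it was not called without wild-type sham 1 (adjusted p = 0.059), without wild-type sham 3 (0.054) or with only the 2 groups fitted (0.051), and without TMM factors the value was 0.09.

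Ldb3 (ENSMUSG00000021798.14, chromosome 14, 34526603 to 34588682, minus strand) had wild-type levels of 1223, 1134 and 1153 CPM after sham and 905, 879.98 and 932 CPM after TAC. Its T497A libraries overlapped the wild-type sham range after both operations, at 1118 to 1149 CPM after sham and 1107 to 1186 CPM after TAC. The change was -0.37 ± 0.06 in wild type (edgeR adjusted p = 0.00012), and -0.04 (adjusted p = 0.53) without TMM factors. In T497A it was 0.01 ± 0.06 (adjusted p = 0.95), with a 95% interval of -0.12 to 0.13.

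Nebl (ENSMUSG00000053702.16, chromosome 2, 17343909 to 17731464, minus strand) fell furthest of the Z-disc members. Wild-type levels were 488, 495 and 501 CPM after sham and 312, 266 and 326 CPM after TAC, the latter below every other library. T497A libraries stood at 501, 486 and 437 CPM after sham and at 456, 412 and 401 CPM after TAC, which overlapped. Its change was -0.72 ± 0.08 in wild type (edgeR adjusted p = 4.5e-06) and -0.17 ± 0.08 in T497A (adjusted p = 0.15), the only member with a negative estimate under both labels. The latter was called without wild-type TAC 2 (-0.17, adjusted p = 0.042) and by limma-voom (adjusted p = 0.046). Every T497A TAC library lay below every wild-type sham library, but this difference was not called (-0.23 ± 0.08, edgeR adjusted p = 0.087).

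Lmod2 (ENSMUSG00000029683.7, chromosome 6, 24597762 to 24605414, plus strand) had the smallest standard error of the 3 members called in opposite directions. Wild-type levels were 1037, 1038 and 1066 CPM after sham and 695, 744 and 672 CPM after TAC. In T497A it went from 852, 809.6 and 897 CPM after sham to 1171, 1114 and 1134 CPM after TAC. The 4 groups did not overlap at all, in the order wild-type TAC, T497A sham, wild-type sham, T497A TAC. The changes were -0.57 ± 0.06 (edgeR adjusted p = 3.6e-06) and 0.42 ± 0.06 (adjusted p = 0.00028), and the interaction was 0.99 ± 0.09 (adjusted p = 4.0e-06).

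Counted together, 7 of the 9 fell and 0 rose with TAC in wild type, in a comparison that called 49.9% of all genes tested, 24% lower and 25.9% higher. The members' median was -0.54 log2 units against 0.03 over all genes. In T497A 5 of the 9 rose and 0 fell, in a comparison that called 24.4% of all genes, 12.9% higher and 11.4% lower, with a median of 0.37 against 0.00. Without T497A TAC 2 that comparison called 15.5% of all genes, 8.66% higher and 6.82% lower. Scaling bears on the wild-type count: without TMM factors the median of all genes in wild type was 0.36, 47.8% of genes were called higher and 10.7% lower, and 5 members fell (Ttn, Myom1, Myom2, Nebl and Lmod2) while Mybpc3 and Myom3 rose. In T497A Mybpc3, Myom1, Myom2, Myom3 and Lmod2 rose and none fell, with or without those factors. Against wild-type sham in place of T497A sham, only Mybpc3 was called higher in T497A TAC (0.25 ± 0.07, adjusted p = 0.038), in a comparison that called 10% of all genes, 6.12% higher and 3.9% lower, and Ttn stood at -0.07 (adjusted p = 0.62), Myom1 at 0.18 (0.11), Myom2 at 0.27 (0.34), Myom3 at 0.30 (0.29) and Lmod2 at 0.12 (0.24). Of the 5 rises in T497A, those of Myom1, Myom2, Myom3 and Lmod2 were thus called against the T497A sham level and not against the wild-type sham level. Conversely, wild-type TAC against T497A sham called 6 members lower (Ttn, Myom1, Nebl, Actn2, Ldb3 and Lmod2) and Myom3 higher, in a comparison that called 50.2% of all genes, 24.6% lower and 25.6% higher.

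**Figure D2:**
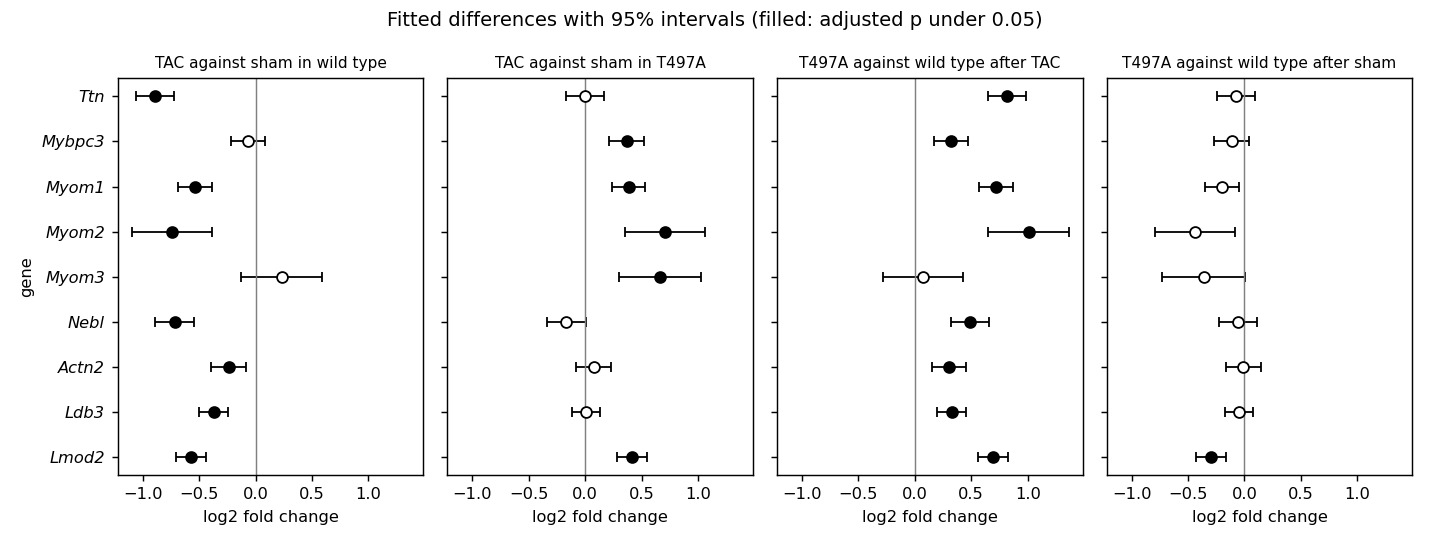
Log2 fold change (x axis) of each gene in 4 comparisons, with 95% intervals from the edgeR fit; filled points have an adjusted p under 0.05. In wild type 7 points are filled left of 0, in T497A 5 are filled right of 0, and after TAC 8 are higher in T497A than in wild type.

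Between the genotypes after sham, only Lmod2 was called: it was lower in T497A (-0.30 ± 0.06, edgeR adjusted p = 0.012), in a comparison that called 5.79% of all genes, 2.8% lower and 2.99% higher. This call was lost without wild-type sham 3 (adjusted p = 0.057). Myom1 (-0.20 ± 0.07, adjusted p = 0.11) and Myom2 (-0.44 ± 0.16, adjusted p = 0.15), like Myom3 (-0.36 ± 0.17, adjusted p = 0.26), were also lower in every T497A sham library than in every wild-type sham library without being called; DESeq2 and limma-voom called Myom1 and Myom2. Without T497A sham 3 the values were -0.28 for Myom2 and -0.21 for Myom3. The share of all genes called after sham was 2.75 to 2.97% without any 1 of the wild-type sham libraries, 3.7% without T497A sham 1, 3.23% without T497A sham 3 and 8.84% without wild-type TAC 2. Ttn (-0.08 ± 0.08, adjusted p = 0.66), Mybpc3, Nebl, Actn2 and Ldb3 overlapped between the sham groups.

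After TAC the genotypes were far apart. Of the 9 genes 8 were higher in T497A TAC than in wild-type TAC and 0 lower, in a comparison that called 35.7% of all genes, 17.8% higher and 17.9% lower. Myom2 (1.01 ± 0.16, edgeR adjusted p = 0.00051), Ttn (0.82 ± 0.08, adjusted p = 5.2e-06), Myom1 (0.72 ± 0.07, adjusted p = 5.0e-06), Lmod2 (0.70 ± 0.06, adjusted p = 2.7e-06) and Nebl (0.49 ± 0.08, adjusted p = 0.00028) differed most and were called without TMM factors too. Ldb3 (0.33 ± 0.06), Mybpc3 (0.32 ± 0.07) and Actn2 (0.30 ± 0.07) were called with these factors but not without (0.08, 0.07 and 0.05), where 8.24% of all genes were called higher and 38.8% lower. Myom3 was not called (0.07 ± 0.17, adjusted p = 0.78). This comparison uses no T497A sham library, and in a fit without that group each of the 8 kept its call.

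The interaction was positive and called for 8 of the 9 genes, in a comparison that called 29.5% of all genes, 15.3% higher and 14.2% lower. After Myom2 it was largest for Lmod2 (0.99), Myom1 (0.92) and Ttn (0.89), and smallest among those called for Actn2 (0.31 ± 0.10, edgeR adjusted p = 0.032). Without TMM factors 4 remained called (Ttn, Myom1, Myom2 and Lmod2), where 6.64% of all genes were called higher and 32.2% lower. The call of Actn2 was also lost on leaving out any 1 of 7 libraries (adjusted p = 0.053 to 0.085): wild-type sham 1 or 3, wild-type TAC 1, T497A sham 1 or 2, T497A TAC 1 or 3.

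Ratios within a library do not depend on scaling and show how the proportions of scaffold transcripts shifted. Per kilobase, Mybpc3 stood at 27.1 to 29.7 times Ttn in wild-type sham and at 48.7 to 51.7 times in wild-type TAC. In T497A the ratio was 26.3 to 28.8 after sham and 34.9 to 36.7 after TAC. Mybpc3 thus gained on Ttn with TAC under both labels without overlap, and further in wild type. Actn2 gained on Ttn in wild type only as far as the ranges show, from 13.1 to 14.5 up to 21.5 ± 0.483 (SD, n = 3), while its T497A ranges (13.7 to 15.5 and 14.5 to 15.3) overlapped. Ldb3 did likewise, from 3.95 to 4.62 up to 6.22 ± 0.208 (SD, n = 3) in wild type, against 4.27 to 4.69 and 4.24 to 4.53 in T497A. Myom1 gained on Ttn to a like extent in both, from 3.91 to 4.47 up to 5.25 to 5.57 in wild type and from 3.53 to 4.34 up to 5.03 to 5.14 in T497A. Nebl to Ttn had a mean of 0.735 after sham and 0.826 after TAC in wild type, with ranges that just overlapped. In T497A the ratio fell without overlap, from 0.714 to 0.767 down to 0.613 to 0.694. This T497A TAC range overlapped that of wild-type sham (0.687 to 0.778). Within the Z-disc, Nebl fell against Actn2 in wild type, from 0.0509 to 0.0582 down to 0.0364 to 0.0399. Its mean in T497A went from 0.0521 to 0.0440, with ranges that overlapped. Within the M-band, Myom2 stood at 1.12 to 1.24 times Myom1 in wild-type sham, 0.846 to 1.12 in wild-type TAC, 0.712 to 1.23 in T497A sham and 1.19 to 1.28 in T497A TAC. Myom3 was 0.00472 to 0.00583 of Myom1 and 0.00420 to 0.00579 of Myom2 in wild-type TAC, above the highest ratio in any other group (0.00353 and 0.00312).

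**Figure D3:**
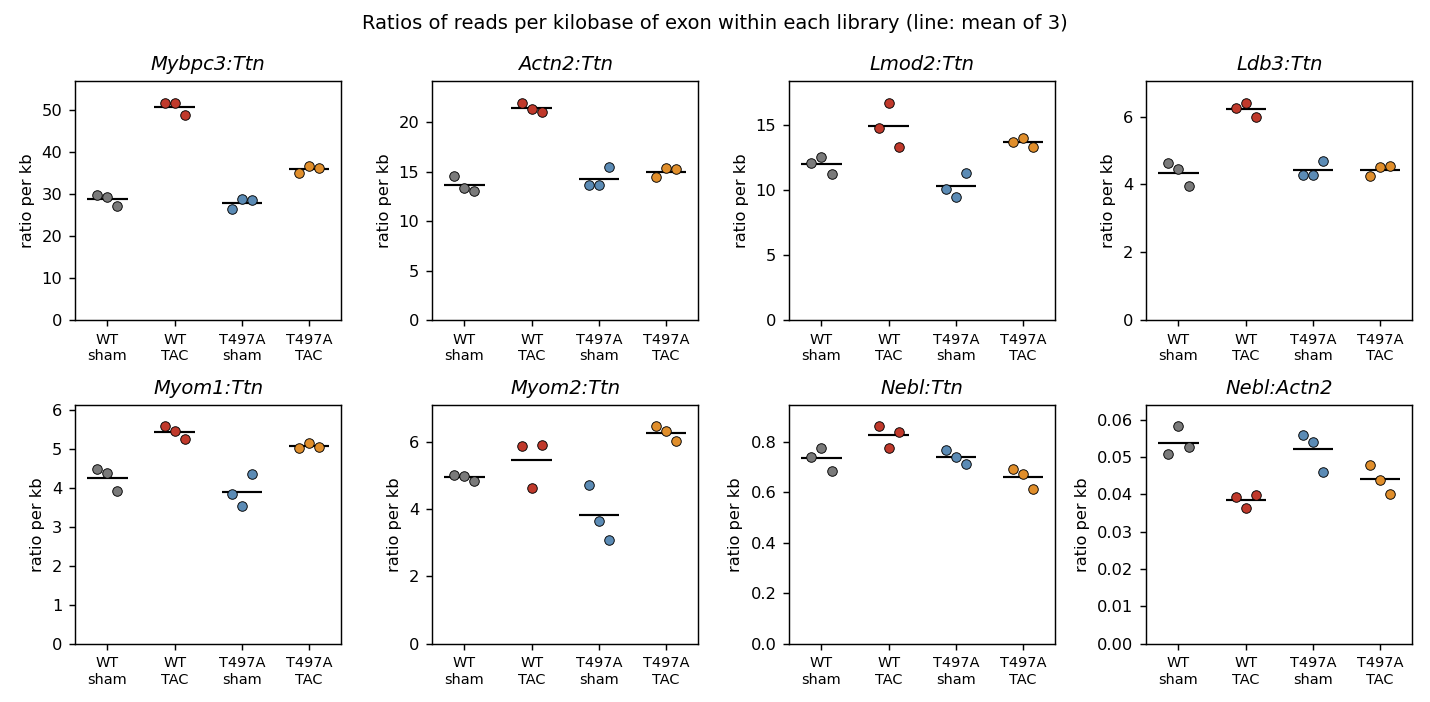
Ratio of reads per kilobase of exon between pairs of members (y axis, from 0) in each library of the 4 groups; lines are means of 3. Mybpc3 to Ttn reaches 48.7 to 51.7 in wild-type TAC and 34.9 to 36.7 in T497A TAC, from 26.3 to 29.7 after sham.

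The 9 genes did not follow a single course over the 12 libraries. Pearson r of log2 CPM between pairs, a description over libraries of 4 groups, ran from -0.37 (Myom3 and Nebl) to 0.97 (Myom1 and Lmod2) with a median of 0.72. Ttn went with Ldb3 (0.97) and Nebl (0.95), and had 0.35 with Mybpc3. Among 8516 other named genes of at least 10 CPM, Dennd4c and Klf12 (both 0.99) were among the 3 closest to Ttn. The closest to Nebl were Msi2, Mllt6 and Rxrg (all 0.99), and to Ldb3 the mitochondrial protease subunit gene Pmpca (0.99), Ppa2 and Prdx5 (both 0.98). Myom2 was closest to Camk2n1, an inhibitor of CaM kinase II (0.96), Mybpc3 to Atcayos and the small heat shock gene Hspb6 (both 0.95), Lmod2 to Epb41l3 (0.96), Myom1 to Abcb4 (0.96), Actn2 to Neurl2 (0.96) and Myom3 to Aldh3a2 (0.94).

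Of 79 other genes of the sarcomere and its upkeep, 43 fell and 14 rose with TAC in wild type (median -0.31), and 20 fell and 15 rose in T497A (median -0.05). The list counts that follow are to be read against the shares of all genes called, 24% lower and 25.9% higher in wild type and 11.4% lower and 12.9% higher in T497A. Against wild-type sham, T497A TAC had 8 of the 79 lower and 7 higher, where 3.9% and 6.12% of all genes were. Thick filament genes rose for 1 of 6 in wild type and fell for 4, led by Myh6 (-1.12 ± 0.10) and Myl2 (-1.06 ± 0.10). In T497A 3 of 6 fell and 0 rose. Among these falls was the atrial gene Mybphl (-3.46 ± 0.88, edgeR adjusted p = 0.022), beside the Myl7 levels given above. Against wild-type sham, T497A TAC had 0 of the 6 lower and 1 higher, Myh7 (2.37 ± 0.49, adjusted p = 0.021). Thin filament genes fell for 6 of 10 and rose for 1 in wild type, including Tnni3 (-1.36 ± 0.11) and the formin Fhod3 (-1.19 ± 0.09), which assembles actin. In T497A 4 fell and 3 rose, the latter being Nrap (0.51 ± 0.07), skeletal actin Acta1 (2.73 ± 0.34) and Lmod3 (0.52 ± 0.08), the relative of Lmod2. Between the sham groups Lmod3 was lower in T497A (-0.42 ± 0.08, edgeR adjusted p = 0.0053). It was not called in T497A TAC against wild-type sham (0.10 ± 0.08, adjusted p = 0.46). On that reference 2 of the 10 thin filament genes were higher, Nrap (0.30) and Acta1 (2.51). A further 3 were lower, among them Tmod1 (-0.24 ± 0.06, adjusted p = 0.028).

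Genes beside titin at the M-band and along its length fell for 10 of 13 and rose for 1 in wild type (median -0.46), among them Cmya5 (myospryn, -1.31 ± 0.06) and the ubiquitin ligase Trim54 (-0.62 ± 0.06). In T497A 4 fell and 1 rose. Cmya5 fell (-0.68 ± 0.06) and Ankrd23, a stretch-linked ankyrin repeat protein that binds titin, rose (1.32 ± 0.16). Against wild-type sham, T497A TAC had 3 of the 13 lower and 1 higher. Other Z-disc genes were split, with 8 of 20 higher and 6 lower in wild type and 6 higher and 3 lower in T497A. Those that rose under both labels included Ankrd1 (1.70 ± 0.10 and 2.35 ± 0.10), Synpo2l (1.28 ± 0.09 and 1.17 ± 0.09) and Xirp2 (1.40 ± 0.09 and 0.86 ± 0.09). T497A TAC against wild-type sham had 3 of these 20 Z-disc genes higher and 0 lower. These were Ankrd1 (1.49 ± 0.10), Synpo2l (0.74 ± 0.09) and Xirp2 (0.56 ± 0.09). Between the sham groups 2 of the 20 were called lower in T497A and 0 higher, where 2.8% and 2.99% of all genes were. The lower ones were Ankrd1 (-0.86 ± 0.10, edgeR adjusted p = 0.00019) and Synpo2l (-0.43 ± 0.09, adjusted p = 0.0097). The chaperone Unc45b (-0.84 ± 0.09) and the methyltransferase Smyd1 (-0.74 ± 0.08), both needed to fold and assemble myosin, were among 5 of 9 assembly and turnover genes that fell in wild type, where 0 rose, and 1 fell and 1 rose in T497A. In T497A TAC, 0 of the 9 assembly and turnover genes were called against wild-type sham. Of 10 genes of lateral anchorage 4 fell and 1 rose in each genotype, and 0 were called in T497A TAC against wild-type sham. The equal counts do not mean equal changes. The interaction was called higher for 4 of the 10 and lower for 2, where 15.3% and 14.2% of all genes were. After TAC 5 were higher in T497A than in wild type and 1 lower, where 17.8% and 17.9% of all genes were.

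Regulators of titin and muscle splicing fell for 8 of 11 and rose for 2 in wild type, and fell for 1 and rose for 3 in T497A. Rbm20, the main splicing repressor of titin's spring region, ranged from 292 to 317 CPM in wild-type sham and from 147 to 192 CPM in wild-type TAC. It fell by 0.83 log2 units there (-0.83 ± 0.08, edgeR adjusted p = 1.6e-06) and was not called in T497A (-0.18 ± 0.08, adjusted p = 0.13), where it stood at 281 to 307 CPM after sham and 248 to 270 CPM after TAC. The interaction was 0.65 ± 0.12 (adjusted p = 0.00089). Ptbp1, another splicing repressor, rose under both labels (0.71 ± 0.08 and 0.38 ± 0.08). None of the 3 rises of this list in T497A was called against wild-type sham, where Ptbp1 was at 0.27 ± 0.08 (edgeR adjusted p = 0.053). On that reference 2 of the 11 were lower and 0 higher, where 3.9% and 6.12% of all genes were. The lower ones were Mbnl2 (-0.30 ± 0.06, adjusted p = 0.0076) and Mbnl1 (-0.26 ± 0.06, adjusted p = 0.020). Medians over these lists are set against 0.03 and 0.00 over all genes in wild type and T497A.

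**Figure D4:**
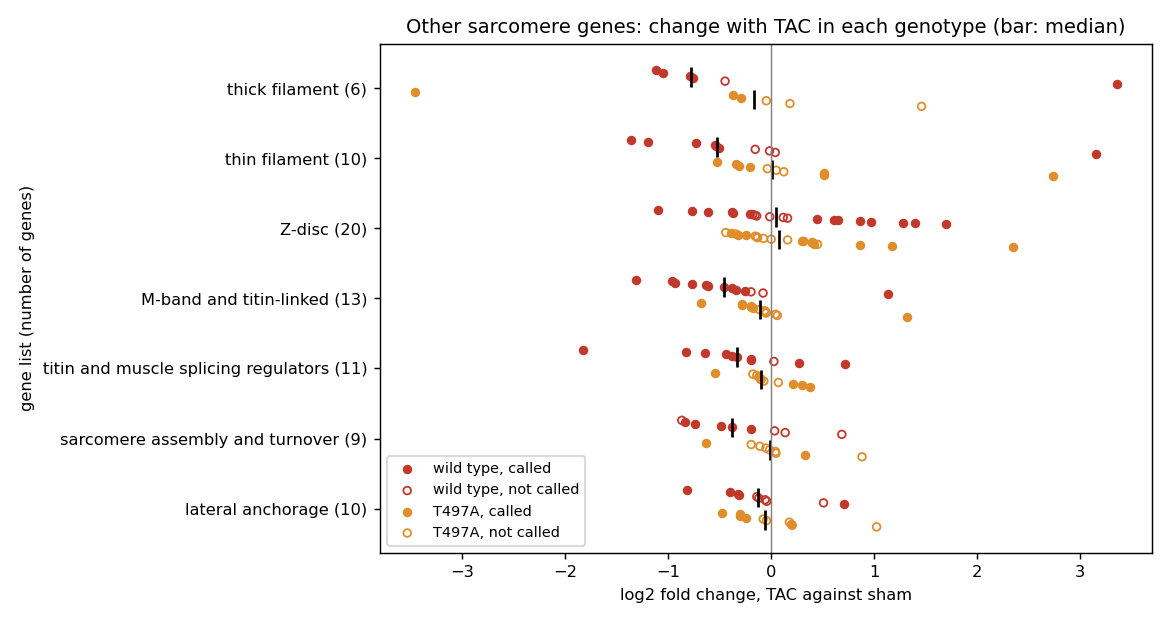
Log2 fold change with TAC (x axis) of the 79 other genes by list (y axis, with the number of genes), in wild type and T497A; filled points are called, open ones not, and black bars are medians. The medians of the thick filament, thin filament, M-band and splicing lists lie between -0.77 and -0.34 in wild type and between -0.17 and 0.01 in T497A, and the Z-disc list spreads to both sides in both.

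Markers of cell types moved with these results. Of 10 cardiomyocyte markers, 7 of them myofilament genes like the members, 8 fell and 0 rose in wild type (median -0.90), with a summed level of 88508 to 96632 CPM after sham and 45330 to 54575 CPM after TAC. In T497A 5 fell and 0 rose (median -0.25), with sums of 94366 to 98524 and 76920.1 to 82362 CPM. All 8 fibroblast markers rose in wild type, to 8829.7 to 18540.2 CPM in sum, and 4 of 8 in T497A, from 1155 to 1462 up to 1940.4 to 2999.6 CPM. All 6 macrophage markers rose in wild type (138 to 163 up to 271 to 422 CPM). In T497A 3 of 6 did (153 to 175 up to 189.8 to 208 CPM). Endothelial markers rose for 5 of 7 in wild type and 4 of 7 in T497A. Of all genes, 24% were called lower and 25.9% higher in wild type, and 11.4% and 12.9% in T497A. With wild-type sham as the reference, T497A TAC had 2 of the 10 cardiomyocyte markers lower. Higher on that reference were 2 of 8 fibroblast, 1 of 6 macrophage and 2 of 7 endothelial markers. Of all genes, 3.9% were called lower and 6.12% higher there. The atrial markers summed to 112 to 306 CPM in wild-type sham, with Bmp10 at 0, to 2585 to 2913 CPM in wild-type TAC, 305 to 1039.65 CPM in T497A sham and 238 to 532 CPM in T497A TAC. The wild-type TAC sum was nearly all Nppa, the natriuretic peptide gene that ventricles also express under load, at 2415 to 2793 CPM from 84.2 to 96.4 CPM after sham. Nppa was the only 1 of 5 atrial markers tested that rose in wild type, and 0 fell. In T497A Nppa rose and Myl7, Myl4 and Sln fell, the latter 3 not called against wild-type sham. No marker of the first 4 types was at 0 in any group, and their part in the changes of the 9 genes was not tested.

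Set against the mean log2 level of the 10 cardiomyocyte markers in the same library, Ttn no longer stood apart in wild type (-0.07, groups overlapping) and was higher after TAC in T497A (0.21). Mybpc3 gained 0.75 and 0.57 on these markers in wild type and T497A, and Actn2 0.58 and 0.28. In wild type 7 of the 9 lay above sham without overlap on this scale and 0 below, where 76.2% of all genes lay above and 3.72% below. In T497A 8 of the 9 did and 0 lay below, where 39.7% of all genes lay above and 6.94% below. Between the TAC groups only Ttn (0.18) and Myom2 (0.38) lay higher in T497A on this scale, where 3.06% of all genes did, and Mybpc3 (-0.32), Myom3 (-0.57), Actn2 (-0.34) and Ldb3 (-0.31) lay lower, where 72.4% did. Mybpc3, Actn2 and Ldb3 were thus higher in T497A TAC as CPM and lower relative to these markers.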

How the data were processed

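Per the submitters' processing notes, reads (single-end, 50 cycles per the labels' protocols) went through Trim Galore 0.6.4, STAR 2.7.3a and featureCounts (Subread 1.6.3); mm10 and GRCh38 are named without a role. The authors deposited 1 table of raw counts by gene with 12 library columns, all used. Strand setting, annotation and handling of multi-mapping reads are not given in the sources. Columns were matched to samples by library name. Some T497A sham columns omit the first letter of the genotype.

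Counts were tested with edgeR 4.0.16 (R 4.3.3): filterByExpr, TMM factors, 1 mean per group over 12 libraries, robust quasi-likelihood F test, Benjamini-Hochberg adjustment over 17699 genes, called under 0.05. A standard error is the absolute log2 fold change over the root of F. An exact test of 3 against 3 cannot go below 0.1. Log2 CPM used a prior count of 2. Limma 3.58.1 and DESeq2 1.42.0 served as alternatives. Libraries of a group differed by 10.6 to 138 in chi-square per degree of freedom, more than counting error alone gives. This does not tell separate animals from separate preparations of the same animal.

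Coordinates and exon lengths are from GENCODE M21 (GRCm38); 55141 IDs matched without their version. Upstream sequences are RefSeq's (GRCm38.p6). Members, lists, comparisons and alternatives were chosen with earlier results of these data known. Named are the 9 members, up to 3 called genes of each list per comparison with the smallest p, and up to 3 genes closest to each member by Pearson r. A gene that this rule names is not reported here.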

Additional observations from a re-analysis of the deposited data

Results flagged for a closer look

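The change with TAC differed between the genotypes for 8 of the 9 genes, by the interaction term of the edgeR fit, where 15.3% of all genes were called in this direction. In log2 units, the T497A change minus the wild-type change was 0.89 for Ttn, 0.43 for Mybpc3, 0.92 for Myom1, 1.45 for Myom2, 0.55 for Nebl, 0.31 for Actn2, 0.38 for Ldb3 and 0.99 for Lmod2. The 2 changes were called in opposite directions for Myom1, Myom2 and Lmod2. For Ttn, Nebl, Actn2 and Ldb3 only the fall in wild type was called, and for Mybpc3 only the rise in T497A. The interaction rests in part on the T497A sham libraries, which are poor in Y-linked RNA, and the part of that difference was not tested.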

How the results depend on the processing

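Of the 9 genes, 7, 5, 1, 8 and 8 were called for TAC in wild type, TAC in T497A, genotype after sham, genotype after TAC and the interaction. Of all genes, 49.9, 24.4, 5.79, 35.7 and 29.5% were called there. Leaving out each library in turn gave 6 to 7, 4 to 6, 0 to 2, 8 to 8 and 7 to 8. The share of all genes was then 43.1 to 49.1, 15.5 to 28.3, 2.75 to 8.84, 29 to 35.4 and 23.9 to 28.9%. Genotype after sham gave 3 by DESeq2, 3 by limma-voom and 2 with only the groups compared. Of all genes, 9.59, 8.2 and 7.8% were called in these settings. Without TMM factors genotype after TAC gave 5 and the interaction 4, where 47.1% and 38.8% of all genes were called. The cause was not tested. The share of all genes called after sham, 5.79%, was 2.75% without wild-type sham 2 and 9.59% by DESeq2. The replicate numbers do not pair the libraries. Same-numbered deviations correlated at -0.08 to 0.04 in 12 pairs, and 3 of 12 libraries went best with their own number. The replicate block left the counts at 7, 5, 1, 8 and 8. Of all genes, 48.5, 22.7, 4.87, 33.9 and 27.8% were called with that block.

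Signs turned as follows; the cause was not tested. Without TMM factors, in wild type Mybpc3 was 0.26 and Actn2 0.0933, after sham Actn2 was 0.0378 and Ldb3 0.000116, and after TAC Myom3 was -0.18 (-0.15 by limma-voom). The estimates near 0 changed sign elsewhere. Ttn with TAC in T497A was -0.00845 with DESeq2 size factors and with DESeq2, -0.0200 by limma-voom, -0.000120 with the replicate block, -0.0297 to 0.0339 on leaving out a library and -0.0738 against wild-type sham. Ldb3 there was -0.00334 with DESeq2 size factors, -0.00333 with DESeq2, -0.0136 by limma-voom, -0.0240 to 0.0265 on leaving out a library and -0.0415 against wild-type sham. Actn2 after sham was 0.000498 by limma-voom and -0.0656 to 0.0207 on leaving out a library. Mybpc3 in wild-type TAC against T497A sham was 0.0455. Myom3 (124 to 348 counts per library) is the member with the fewest counts, and the part of counting error in its spread was not tested.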

Other observations

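Mybpc2, the fast skeletal relative of Mybpc3 and a gene of the skeletal muscle marker list, rose with TAC under both labels, and is named here after its values were seen. Wild-type levels were 31.7, 22.6 and 28.6 CPM after sham and 114, 128 and 108 CPM after TAC (log2 fold change 2.08 ± 0.20, edgeR adjusted p = 1.3e-05). In T497A it went from 19.4, 30.4 and 35.3 CPM to 69.4, 71.7 and 63.4 CPM (1.27 ± 0.20, adjusted p = 0.0013). The rise was smaller in T497A (interaction -0.81 ± 0.27, adjusted p = 0.049). Mybpc2 in T497A TAC, at 63.4 to 71.7 CPM, also stood above wild-type sham, at 22.6 to 31.7 CPM. Of the 10 skeletal muscle markers 7 were tested, of which 2 rose and 2 fell in wild type. In T497A 1 rose and 0 fell. Of all genes, 25.9% were called higher and 24% lower in wild type, and 12.9% and 11.4% in T497A. Against wild-type sham, T497A TAC had 1 of the 7 higher and 0 lower, where 6.12% and 3.9% of all genes were. The myosins Myh1, Myh2 and Myh4 stood at 0 to 0.169 CPM in every library.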
